A study of Mus musculus with 9 samples.

Results

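The 54 genes described here encode proteins of the nucleolus and of ribosome assembly in the mouse. They were taken by symbol from a deposited table of 19359 genes, which held all 54. They comprise 7 genes of RNA polymerase I transcription, 10 genes of small nucleolar ribonucleoproteins (snoRNPs), 19 assembly factors of the small ribosomal subunit, 14 of the large subunit and 4 other nucleolar proteins. Their polyadenylated RNA was measured in embryos at 34 h after fertilization, in 9 libraries that were each made from a pool of 3 embryos. In pronuclear transfer, a zygote's pronuclei are taken out and placed in a different cytoplast. The LPN group had the transfer at a later time, the EPN group had it early, and the SPN group had a sham transfer and is the control named by the submitters. Each group has 3 libraries, lettered A, B and C. All groups share the same protocol text, in which the oocytes and eggs come from hormone-stimulated B6D2F1 females of 8 to 12 weeks. That text also describes cytoplasts with strongly abnormal parameters, made from germinal vesicle oocytes by selective enucleation, and does not say in which group they were used. It gives neither the hours of the 2 transfer times nor whether the pools came from separate days or matings, so every p-value here measures only the spread between these libraries.

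Ribosomes begin in the nucleolus, where RNA polymerase I transcribes the ribosomal RNA genes into a long precursor. SnoRNPs guide the modification of this precursor, large complexes of assembly factors fold and cut it, and the 2 subunits leave the nucleus with late factors that are released in the cytoplasm. In the mouse zygote the pronuclei hold compact nucleolus precursor bodies inherited from the oocyte, which do not make ribosomes. Ribosomal RNA synthesis resumes around the 2-cell stage, and the genes for the assembly factors are among those that the embryo then transcribes itself.

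Library totals ran from 7611781 reads in LPN B to 15559218 reads in LPN A, and a single read equalled 0.0643 to 0.131 CPM (a gene's reads divided by the library total and scaled alike in all libraries). A gene with no read could be at up to 0.193 to 0.394 CPM, a limit of 3 reads that covers counting error only. All 54 genes passed the filter of 1 CPM in 3 libraries, none shared its values with another gene of the table, and 14876 genes were tested. The label of the tissue, embryo, was checked against marker lists. A list of 12 genes of the early embryonic transcription wave, 10 of them in the table, summed to 4991 to 7839 CPM in LPN, 4262 to 5895 CPM in EPN and 2063 to 3607 CPM in SPN. The 12 oocyte-derived transcripts, all in the table, summed to 1418 to 2097 CPM in LPN, 2396 to 2947 CPM in EPN and 2936 to 3733 CPM in SPN. Of 12 cumulus and granulosa cell markers 8 were in the table, with Foxl2 at 0 in all libraries, and these summed to 27.1 to 39.5 CPM in LPN, 25.1 to 54.9 CPM in EPN and 30.5 to 46.2 CPM in SPN. Of 7 sperm markers 4 were in the table, with sums of up to 6.62 CPM in LPN, 6.95 CPM in EPN and 12.3 CPM in SPN. Of 6 blood markers 2 were in the table, at 9.32 to 26.1 CPM in LPN, 33.9 to 79.8 CPM in EPN and 36.0 to 100.4 CPM in SPN. The early embryonic, oocyte and blood lists moved with the groups, and their part in the results below was not tested. In pooled embryos, fewer cells and less RNA per cell cannot be told apart. Library SPN A correlated more with the EPN libraries than with the other SPN libraries. Across the tested genes its mean Spearman correlation was 0.916 with the EPN libraries and 0.897 with SPN B and SPN C. The same means for SPN B and SPN C are not given here. The labels were kept as given. Whether the label of SPN A is right, or a technical difference lies behind these correlations, could not be settled from the files. This bears on the SPN mean of every gene, so counts are also given without it. SPN A was singled out because it lies near the EPN libraries. A call gained without it is therefore no independent support for a difference.

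The 3 comparisons of the groups ask how the transcripts of the nucleolus and of ribosome assembly differ after a later transfer, after an early transfer, and between the 2 times. After the later transfer 7 of the 54 genes rose and none fell, with folds of 1.85 to 2.86 against the sham procedure. They were the RNA polymerase I subunit gene Polr1e, the snoRNP gene Dkc1, the small subunit genes Dcaf13 and Ltv1, and the large subunit genes Brix1, Nip7 and Nmd3. After the early transfer none of the 54 genes passed the test. Between the 2 transfer times Polr1e alone passed, with the higher level in LPN. The test was limma on log2(CPM + 1) over all 9 libraries, with Benjamini-Hochberg adjustment over the 14876 genes and a call at an adjusted p under 0.05.

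Over all tested genes 3.26% were called higher and 5.54% lower in LPN against SPN, beside 7 and 0 of the 54 genes. At an unadjusted p under 0.05 there were 19 of the 54, or 35.2%, beside 26.9% of all tested genes. The median difference of the 54 genes was 0.37 on the log2 scale, against -0.17 for all tested genes, so that it lay 0.54 above it. Of the 54 differences 37 were positive, or 68.5%, beside 43.0% of all tested genes. Median-of-ratios scaling, an alternative to CPM as deposited, brought the median of all genes to -0.03 and their split of 485 higher and 824 lower calls to 663 higher and 542 lower. With it 9 of the 54 genes were called, all higher, beside 4.46% of all genes higher and 3.64% lower. Without SPN A 16 of the 54 were called, all higher, beside 6.59% of all genes higher and 11.8% lower. The count was 3 without LPN A, beside 3.89% of all genes called in either direction, and 0 without LPN B, beside 1.37%. It was 5 without LPN C, 4 higher and Rrs1 lower, beside 7.46%. It was 2 without SPN B, beside 3.01%, and 1 without SPN C, beside 0.645%. On the recovered reads edgeR called 2, beside 3.17% of all genes, and DESeq2 11, beside 12.3%. The 2 of 54 genes called by edgeR and without SPN B are a share near that of all genes. Dcaf13 and Brix1 were the genes called by edgeR and without a filter on low values.

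In EPN against SPN 0 of the 54 genes were called, beside 0.108% of all tested genes, and 12 of the 54, or 22.2%, had an unadjusted p under 0.05, beside 11.04% of all tested genes. EdgeR and DESeq2 also called 0, beside 0% and 0.787% of all genes. The median of the 54 genes lay 0.29 above that of all genes, and 39 differences were positive, or 72.2%, beside 45.5% of all tested genes. Without SPN A 5 were called, all higher, beside 1.84% of all genes higher in EPN. These were Ltv1, Dkc1, Nolc1, Polr1c and Ncl. In LPN against EPN 27 differences were positive, or 50.0%, beside 43.3% of all tested genes, with a median 0.14 above that of all genes. An unadjusted p under 0.05 was found for 8 of the 54, or 14.8%, which is below the 19.3% of all tested genes. After adjustment 1 of the 54 was called, beside 0.692% of all genes higher and 0.84% lower in LPN. The count of that comparison was 3 without SPN A, beside 2.08% of all genes higher, and 0 without any other single library except LPN C, where it was 2, Brix1 higher and Rrs1 lower. The F test over the 3 groups called Dcaf13, Brix1, Ltv1 and Polr1e, beside 5.73% of all genes. SPN libraries enter both comparisons with SPN, so those are not independent of each other.

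**Figure D1:**
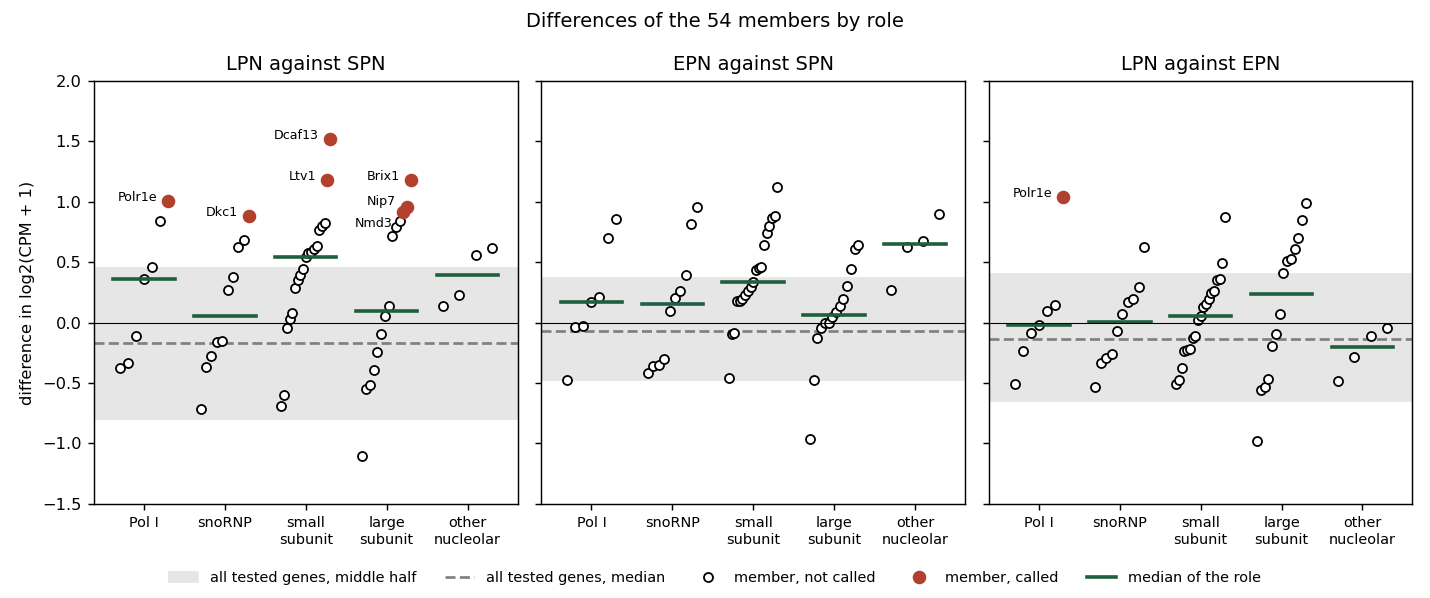
Difference of each of the 54 genes in log2(CPM + 1), by role, for LPN against SPN, EPN against SPN and LPN against EPN. Filled points are called genes, green bars are medians of a role, the dashed line is the median of all tested genes and the grey band spans their lower to upper quartile. The 7 called genes of LPN against SPN lie between 0.89 and 1.52.

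The libraries themselves show the level of the whole set. Summed over the 54 genes, the level was 14115, 14696 and 16022 CPM in LPN A, B and C, 10720, 12668 and 13638 CPM in EPN and 11346, 9997 and 8563 CPM in SPN. Every LPN library lay above every EPN and SPN library, also with median-of-ratios scaling, where the sums ran from 15294 to 17286 in LPN, 9601 to 13765 in EPN and 7228 to 12401 in SPN. A sum is carried by the abundant genes. The mean of log2(CPM + 1), in which each gene counts alike, was 6.98, 6.94 and 7.47 in LPN, 6.94, 7.05 and 7.29 in EPN and 6.89, 6.88 and 6.77 in SPN. On that scale LPN A lay within the EPN libraries, LPN B at their lower edge and LPN C above all others. LPN C was the highest LPN library for 37 of the 54 genes, LPN B for 9 and LPN A for 8.

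**Figure D2:**
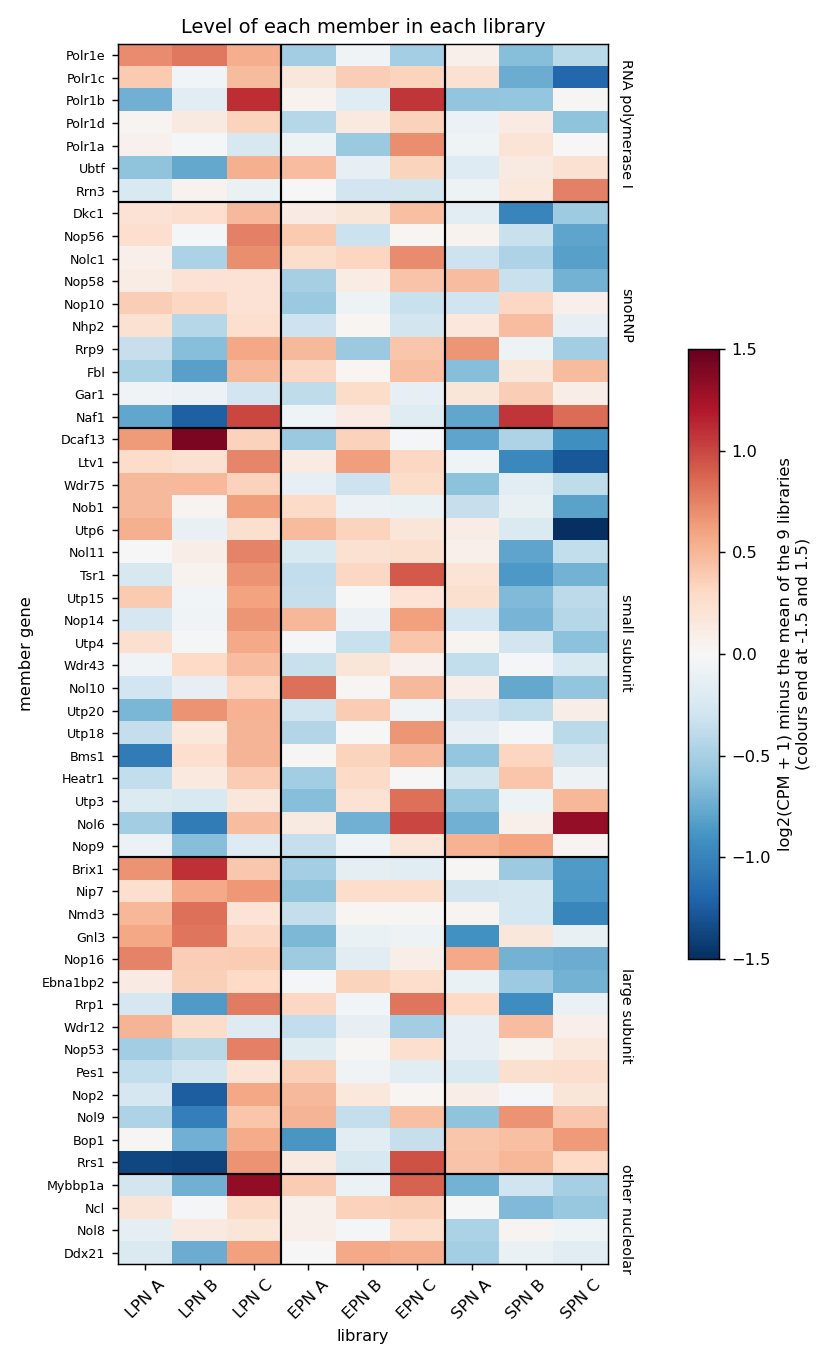
Level of each of the 54 genes (rows, grouped by role and ordered within a role by the difference of LPN against SPN) in each of the 9 libraries (columns), as log2(CPM + 1) minus the mean of the gene over the 9 libraries. Red is above that mean and blue below it, and LPN C is the highest LPN library for 37 of the 54 genes.

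Levels between genes are compared per length of the longest coding transcript of the reference annotation. This length may differ from that of the transcript the embryo makes, and it was over 8 kb for Ncl, Nmd3, Nop58, Utp20, Polr1a and Wdr12. Per kilobase and averaged over the 9 libraries, Nhp2 was the most abundant at 653 CPM, followed by Brix1 at 380 CPM, Nop16 at 319 CPM, Nop10 at 282 CPM and Polr1c at 275 CPM. At the other end Polr1a was at 3.83 CPM, Naf1 at 1.53 CPM and Nol6 at 1.33 CPM per kilobase. Subunits of one complex could therefore stand far apart, as Polr1c and Polr1a do in RNA polymerase I.

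RNA polymerase I makes the precursor of ribosomal RNA, and Ubtf and Rrn3 bring it to the ribosomal RNA genes. Of its 7 genes 1 rose in LPN against SPN, none passed in EPN against SPN and 1 rose in LPN against EPN, each time Polr1e. Polr1e, an accessory subunit that works in initiation and elongation, was at 444, 470 and 394 CPM in LPN, 188, 260 and 190 CPM in EPN and 286, 173 and 204 CPM in SPN. All LPN libraries lay above all EPN and SPN libraries, while EPN and SPN overlapped. The level was 436 ± 39.0 CPM in LPN, 213 ± 40.9 CPM in EPN and 221 ± 58.1 CPM in SPN (SD, n = 3), which gave a 2.01-fold rise in LPN against SPN (log2 difference 1.0, SE 0.28, adjusted p = 0.0248) and a 2.06-fold rise against EPN (1.04, SE 0.28, adjusted p = 0.0490). The difference of EPN against SPN was -0.04 (adjusted p = 0.977). The call against SPN held in 11 of 18 alternative settings. It ended without LPN A, LPN B, SPN B or SPN C, where the adjusted p ran from 0.0754 to 0.117. It also ended with no filter on low values, with edgeR and in a fit of the 2 groups alone (adjusted p = 0.0520 to 0.0574). The call against EPN held in 6 of 18. It ended without any 1 of the 3 LPN libraries, of the 3 EPN libraries or of SPN B and SPN C (adjusted p = 0.0502 to 0.217). It also ended with a pseudocount of 0.1 CPM, no filter, median-of-ratios scaling and edgeR (adjusted p = 0.0588 to 0.109).

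Polr1c, a subunit that RNA polymerase I shares with RNA polymerase III, was at 447, 330 and 474 CPM in LPN, 383, 442 and 428 CPM in EPN and 399, 203 and 150 CPM in SPN. SPN A lay within the transfer libraries and the other SPN libraries below all of them. The log2 differences were 0.84 in LPN (adjusted p = 0.0725) and 0.86 in EPN (adjusted p = 0.276) against SPN, and without SPN A they were 1.24 (adjusted p = 0.00233) and 1.25 (adjusted p = 0.00933). Neither passed in any other of the 18 alternative settings. The lowest differences there were 0.53 in LPN (adjusted p up to 0.379) and 0.55 in EPN (up to 0.769). Polr1b and Polr1a encode the large subunits that form the catalytic centre. Polr1b was at 28.9, 43.2 and 105 CPM in LPN, 50.1, 42.3 and 102 CPM in EPN and 31.7, 31.9 and 48.9 CPM in SPN, so that the C library was the highest in each group. Polr1a averaged 32.9 ± 3.65 CPM in LPN, 37.3 ± 17.3 CPM in EPN and 35.6 ± 3.67 CPM in SPN (adjusted p = 0.886 for LPN and 0.990 for EPN against SPN). Ubtf, the HMG-box protein that binds ribosomal DNA, averaged 60.1 ± 32.5 CPM in LPN, 79.8 ± 16.3 CPM in EPN and 70.3 ± 10.6 CPM in SPN (adjusted p = 0.570 for LPN and 0.889 for EPN against SPN). Rrn3, which carries the polymerase to the promoter, averaged 77.4 ± 7.50 CPM in LPN, 72.4 ± 8.26 CPM in EPN and 104 ± 32.6 CPM in SPN (adjusted p = 0.465 for LPN and 0.610 for EPN against SPN). Polr1d, shared with RNA polymerase III like Polr1c, differed by 0.36 in LPN and 0.21 in EPN against SPN (adjusted p = 0.436 and 0.827). Polr1a, Polr1b, Ubtf and Rrn3 were not called in any of the 18 alternative settings.

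SnoRNPs of the box C/D kind, built on the methyltransferase Fbl with Nop56 and Nop58, methylate ribosomal RNA. Those of the box H/ACA kind, built on the pseudouridine synthase Dkc1 with Nhp2, Gar1 and Nop10, convert uridines to pseudouridine. Of the 10 snoRNP genes 1 rose in LPN against SPN and none passed in the other comparisons. Dkc1 was at 625, 638 and 751 CPM in LPN, 584, 607 and 731 CPM in EPN and 475, 270 and 369 CPM in SPN. Every library of both transfer groups lay above every SPN library, and LPN and EPN overlapped. The level was 672 ± 69.1 CPM in LPN, 641 ± 79.2 CPM in EPN and 371 ± 103 CPM in SPN, a 1.85-fold rise in LPN (log2 difference 0.89, SE 0.27, adjusted p = 0.0370) beside a difference of 0.82 in EPN that did not pass (adjusted p = 0.243). The LPN call held in 7 of 18 alternative settings. It ended without any 1 of the 3 LPN libraries, of EPN B and EPN C or of SPN B and SPN C (adjusted p = 0.0503 to 0.179). It also ended with no filter, with edgeR and in a fit of the 2 groups alone (adjusted p = 0.0669 to 0.0798). With the correction for GC content and length described below the log2 difference was 0.77, and the call ended there too (adjusted p = 0.0609).

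Nolc1, a phosphoprotein that chaperones snoRNPs between the nucleolus and Cajal bodies, was at 500, 339 and 766 CPM in LPN, 566, 589 and 776 CPM in EPN and 380, 343 and 268 CPM in SPN. All EPN libraries lay above all SPN libraries, whereas LPN B fell among the SPN libraries. The log2 difference was 0.96 in EPN (SE 0.29, adjusted p = 0.195) and 0.63 in LPN (adjusted p = 0.155) against SPN, and in EPN it was 1.07 without SPN A (adjusted p = 0.0454). In EPN it passed in no other of the 18 alternative settings, where it went down to 0.82 (adjusted p up to 0.569). Nop56 averaged 381 ± 109 CPM in LPN, 310 ± 76.6 CPM in EPN and 237 ± 68.3 CPM in SPN (adjusted p = 0.128 for LPN against SPN). It passed in LPN without SPN A (adjusted p = 0.0329) and in no other of the 18 alternative settings (adjusted p up to 0.451). Fbl, the methyltransferase itself, was at 45.2, 35.5 and 88.8 CPM in LPN, 78.7, 64.8 and 87.2 CPM in EPN and 40.2, 71.6 and 88.3 CPM in SPN, which overlap throughout. The other 6 genes, Nop58, Rrp9, Nhp2, Gar1, Nop10 and Naf1, had differences of -0.71 to 0.38 in LPN and -0.42 to 0.21 in EPN against SPN, and none passed. Of the H/ACA partners of Dkc1, Nop10 differed by 0.27, Nhp2 by -0.15 and Gar1 by -0.36 in LPN against SPN (adjusted p = 0.554, 0.761 and 0.561).

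The small subunit class holds the factors that package the early precursor, such as the UTP-A proteins Heatr1, Utp4, Utp15, Wdr43, Wdr75 and Nol11, and late factors such as Ltv1 and Nob1. Of its 19 genes 2 rose in LPN against SPN and none passed in the other comparisons. In LPN against SPN 16 of the 19 differences were positive, with a median 0.71 above that of all genes, and in EPN against SPN 16 were positive, with a median 0.41 above. Summed over the 19 genes the level was 3177 to 4042 CPM in LPN, 2612 to 3451 CPM in EPN and 2124 to 2433 CPM in SPN, so that both transfer groups lay above all SPN libraries. With median-of-ratios scaling the EPN and SPN sums overlapped (2340 to 3483 and 1793 to 2659), and those of LPN (3511 to 4323) stayed above SPN.

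Dcaf13, a nucleolar WD-repeat protein that acts in the processing of small subunit ribosomal RNA and as a substrate receptor of a CUL4 ubiquitin ligase, had the largest difference of the 54 genes in LPN against SPN. It was at 509, 872 and 415 CPM in LPN, 223, 415 and 324 CPM in EPN and 189, 238 and 173 CPM in SPN. All LPN libraries lay above all SPN libraries, and EPN lay between, overlapping both. The level was 599 ± 241 CPM in LPN, 321 ± 96.3 CPM in EPN and 200 ± 33.9 CPM in SPN, a 2.86-fold rise in LPN (log2 difference 1.52, SE 0.30, adjusted p = 0.00352). Against SPN the EPN difference was 0.65 (adjusted p = 0.427), and LPN against EPN was 0.87 (adjusted p = 0.112). The call in LPN held in 17 of 18 alternative settings and ended without LPN B, its highest library (1.21, adjusted p = 0.0504).

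Ltv1 joins the maturing small subunit late and leaves it in the cytoplasm. It was at 283, 272 and 388 CPM in LPN, 255, 360 and 290 CPM in EPN and 223, 119 and 96.1 CPM in SPN. Every library of both transfer groups lay above every SPN library, with SPN A the nearest. The level was 314 ± 63.6 CPM in LPN, 302 ± 53.6 CPM in EPN and 146 ± 67.5 CPM in SPN, a 2.26-fold rise in LPN (log2 difference 1.18, SE 0.30, adjusted p = 0.0165). The EPN difference was close in size, 1.12 (SE 0.30), and did not pass (adjusted p = 0.129), while LPN and EPN differed by 0.06 (adjusted p = 0.941). Without SPN A the differences were 1.53 in LPN (adjusted p = 0.000767) and 1.47 in EPN (adjusted p = 0.00462). The EPN difference passed in no other of the 18 alternative settings (adjusted p up to 0.534). The LPN call held in 12 of 18 alternative settings. It ended without LPN B, LPN C, SPN B or SPN C (adjusted p = 0.0518 to 0.149), with no filter (0.0561) and with edgeR (0.0666).

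Wdr75, of the UTP-A group, was at 207, 206 and 188 CPM in LPN, 135, 118 and 179 CPM in EPN and 95.7, 131 and 112 CPM in SPN. LPN lay above both other groups without overlap, at a log2 difference of 0.83 against SPN (SE 0.29, adjusted p = 0.0628). That difference passed in 4 of 18 alternative settings. They were a filter of 5 CPM on the mean, median-of-ratios scaling, DESeq2 and the letter as a block. Nob1, the endonuclease that makes the mature end of the small subunit ribosomal RNA, was at 264, 193 and 291 CPM in LPN, 229, 177 and 175 CPM in EPN and 148, 174 and 107 CPM in SPN. Both transfer groups lay above SPN, EPN by a small margin over SPN B, at log2 differences of 0.80 (adjusted p = 0.0733) and 0.45 (adjusted p = 0.591). The LPN difference of Nob1 passed in 3 of 18 alternative settings, with median-of-ratios scaling, with DESeq2 and without SPN A. The EPN difference passed in none. The other 15 genes had differences of -0.69 to 0.77 in LPN and -0.46 to 0.88 in EPN against SPN. Nop9 (named after its values were seen) had the lowest in LPN, at 34.9 ± 6.79 CPM against 56.9 ± 11.2 CPM in SPN, without overlap (adjusted p = 0.208).

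The large subunit class runs from the complex of Pes1, Bop1 and Wdr12, which acts in the cutting of the precursor, to Nmd3, which carries the maturing subunit out of the nucleus. Of its 14 genes 3 rose in LPN against SPN, or 21.4%, beside 3.26% of all tested genes, and none passed in the other comparisons. In LPN against SPN its differences ran from -1.10 to 1.18, with a median 0.27 above that of all genes. There 8 of 14 were positive, or 57.1%, beside 43.0% of all tested genes. In EPN against SPN the median was 0.14 above, with 9 positive, or 64.3%, beside 45.5% of all tested genes. Its sum was 5192 to 6039 CPM in LPN, 3124 to 4161 CPM in EPN and 2611 to 3955 CPM in SPN, and the LPN libraries stayed above the others with median-of-ratios scaling (4956 to 7102, 2798 to 4200 and 2204 to 4323).

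Brix1, a Brix-domain protein needed for the maturation of large subunit ribosomal RNA, was at 1479, 1988 and 1228 CPM in LPN, 655, 846 and 836 CPM in EPN and 937, 635 and 517 CPM in SPN. All LPN libraries lay above all others, and EPN and SPN overlapped. The level was 1565 ± 387 CPM in LPN, 779 ± 108 CPM in EPN and 697 ± 217 CPM in SPN, a 2.27-fold rise in LPN against SPN (log2 difference 1.18, SE 0.28, adjusted p = 0.0101). LPN against EPN was 0.99 (SE 0.28) and did not pass (adjusted p = 0.0571), and EPN against SPN was 0.20 (adjusted p = 0.833). The call against SPN held in 16 of 18 alternative settings and ended without LPN B (1.0, adjusted p = 0.0904) and without SPN C (0.99, adjusted p = 0.0999).

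Nip7, which binds the precursor of the large subunit, was at 684, 850 and 903 CPM in LPN, 379, 687 and 692 CPM in EPN and 474, 480 and 314 CPM in SPN. LPN lay above SPN without overlap, and EPN A lay among the SPN libraries. The rise in LPN against SPN was 1.94-fold (812 ± 114 and 423 ± 93.9 CPM, log2 difference 0.96, SE 0.28, adjusted p = 0.0336), beside 0.44 in EPN (adjusted p = 0.589). Nmd3, the export adaptor, was at 889, 1122 and 726 CPM in LPN, 494, 644 and 639 CPM in EPN and 649, 524 and 319 CPM in SPN. LPN lay above both other groups, which overlapped, and SPN A was slightly above the highest EPN library. The rise against SPN was 1.88-fold (912 ± 199 and 497 ± 167 CPM, log2 difference 0.91, SE 0.28, adjusted p = 0.0407), and LPN against EPN was 0.61 (adjusted p = 0.232). The call of Nip7 held in 10 of 18 alternative settings and that of Nmd3 in 7. Both ended with no filter, with edgeR and in a fit of the 2 groups alone. There the adjusted p was 0.0614 to 0.0843 for Nip7 and 0.0836 to 0.0974 for Nmd3. Both calls also ended when single libraries were left out. Without LPN A, LPN B, LPN C, SPN B or SPN C the adjusted p of Nip7 was 0.055 to 0.196, and without LPN A, LPN B, EPN B, EPN C, SPN B or SPN C that of Nmd3 was 0.0545 to 0.269. The call of Nmd3 also ended with a pseudocount of 0.1 CPM (adjusted p = 0.0533) and with median-of-ratios scaling (adjusted p = 0.0525).

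Pes1 averaged 39.3 ± 9.08 CPM in LPN, 44.9 ± 8.89 CPM in EPN and 46.4 ± 8.59 CPM in SPN. Its partner Bop1 was at 41.1, 24.4 and 60.6 CPM in LPN, 21.8, 36.5 and 31.9 CPM in EPN and 54.9, 56.1 and 64.2 CPM in SPN. All EPN libraries of Bop1 lay below all SPN libraries, at a log2 difference of -0.96 (SE 0.38, adjusted p = 0.338), and LPN overlapped both (-0.55 against SPN, adjusted p = 0.356). Rrs1, which in yeast brings the small ribosomal RNA of the large subunit into the precursor, is named after its values were seen. It was at 17.4, 17.1 and 74.1 CPM in LPN, 50.7, 39.1 and 90.6 CPM in EPN and 62.7, 65.7 and 57.1 CPM in SPN. LPN A and LPN B lay far below all other libraries and LPN C above all SPN libraries, at a log2 difference of -1.10 against SPN (adjusted p = 0.0970), which without LPN C was -1.78 (adjusted p = 0.0128). Gnl3 (nucleostemin, likewise named after its values were seen) was at 356, 416 and 296 CPM in LPN, 149, 223 and 225 CPM in EPN and 127, 268 and 221 CPM in SPN, above both other groups in every LPN library (adjusted p = 0.0680 against SPN and 0.119 against EPN). Against SPN it passed with a filter of 5 CPM on the mean, median-of-ratios scaling, DESeq2 and the letter as a block. Against EPN it passed with DESeq2 and without SPN A. The other 7 genes, Wdr12, Nop2, Nop16, Nop53, Nol9, Rrp1 and Ebna1bp2, had differences of -0.52 to 0.79 in LPN and -0.48 to 0.64 in EPN against SPN, and none passed.

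**Figure D3:**
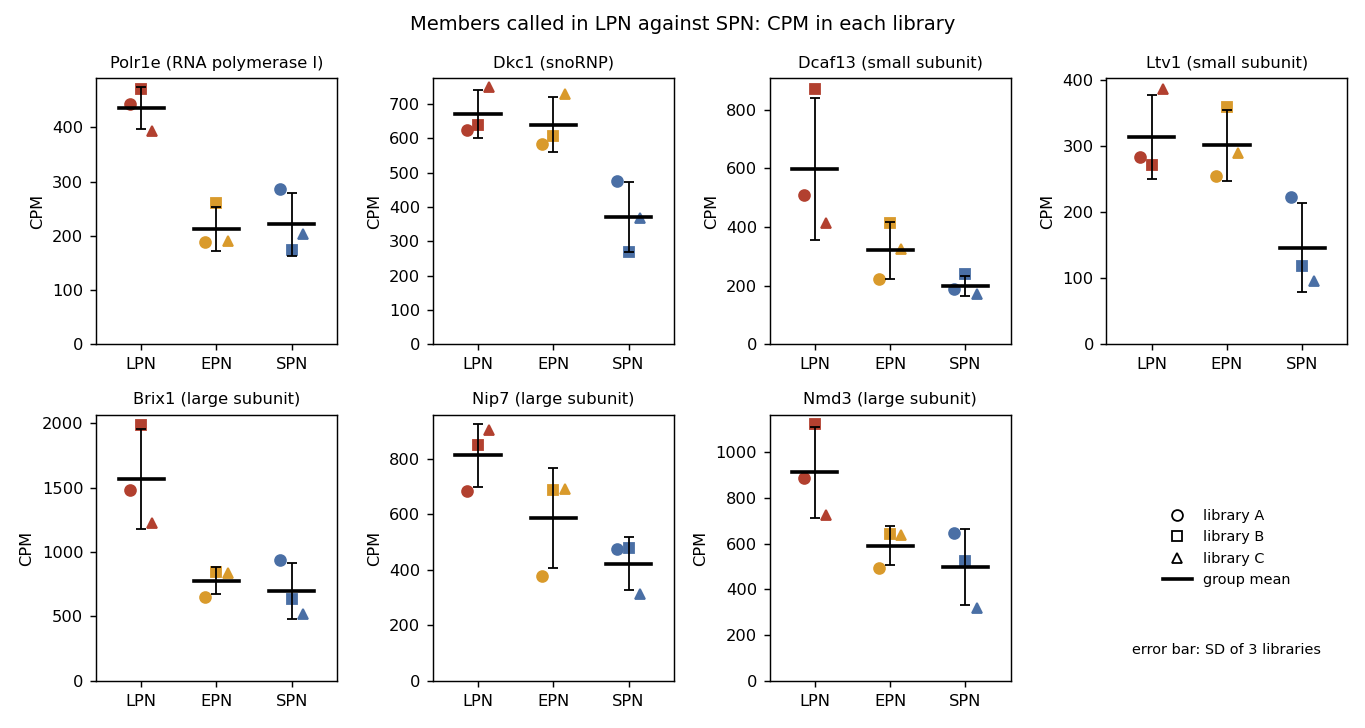
CPM of the 7 genes called in LPN against SPN, in each library of LPN, EPN and SPN, with the group mean and an error bar of 1 SD (n = 3). Circles, squares and triangles are libraries A, B and C, and each axis starts at 0. LPN lies above SPN without overlap in all 7 panels, and in Dkc1 and Ltv1 EPN does too.

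The 4 other nucleolar genes had a different order of groups, with the highest mean in EPN for all 4. None was called. Ncl (nucleolin), the abundant RNA-binding protein of the nucleolus, was at 757, 650 and 812 CPM in LPN, 702, 844 and 852 CPM in EPN and 661, 421 and 447 CPM in SPN. The EPN libraries lay above all SPN libraries, at a log2 difference of 0.67 (SE 0.26, adjusted p = 0.338), and LPN B lay just under SPN A, at 0.56 (adjusted p = 0.169). Without SPN A both passed, at 0.88 in EPN (adjusted p = 0.0386) and 0.76 in LPN (adjusted p = 0.0247). Neither passed in any other of the 18 alternative settings. The lowest differences there were 0.55 in EPN (adjusted p up to 0.718) and 0.44 in LPN (up to 0.400). Ddx21, an RNA helicase that also binds ribosomal DNA, averaged 125 ± 61.0 CPM in LPN, 166 ± 35.3 CPM in EPN and 106 ± 15.8 CPM in SPN. Mybbp1a, a nucleolar repressor of transcription, was at 48.3, 35.1 and 148 CPM in LPN, 76.7, 54.8 and 109 CPM in EPN and 35.5, 47.2 and 41.0 CPM in SPN. EPN lay above SPN without overlap for both genes (adjusted p = 0.476 and 0.407), while LPN spanned the whole range, with LPN C the highest library of all. Nol8, the fourth gene, averaged 275 ± 31.6 CPM in LPN, 284 ± 30.0 CPM in EPN and 237 ± 42.7 CPM in SPN.

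Genes were also counted by whether the libraries of 2 groups overlap, with no test. In LPN against SPN 11 of the 54 genes had all LPN libraries above all SPN libraries, beside 11.3% of all tested genes, and 2 (Gar1 and Nop9) had them below, beside 16.2%. In EPN against SPN 10 lay above, beside 7.07%, and 2 (Bop1 and Wdr12) below, beside 7.56%. In LPN against EPN 7 lay above, beside 11.3%, and none below, beside 15.3%. Per gene, the highest of the 3 group means was in LPN for 24 genes, in EPN for 20 and in SPN for 10.

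**Figure D4:**
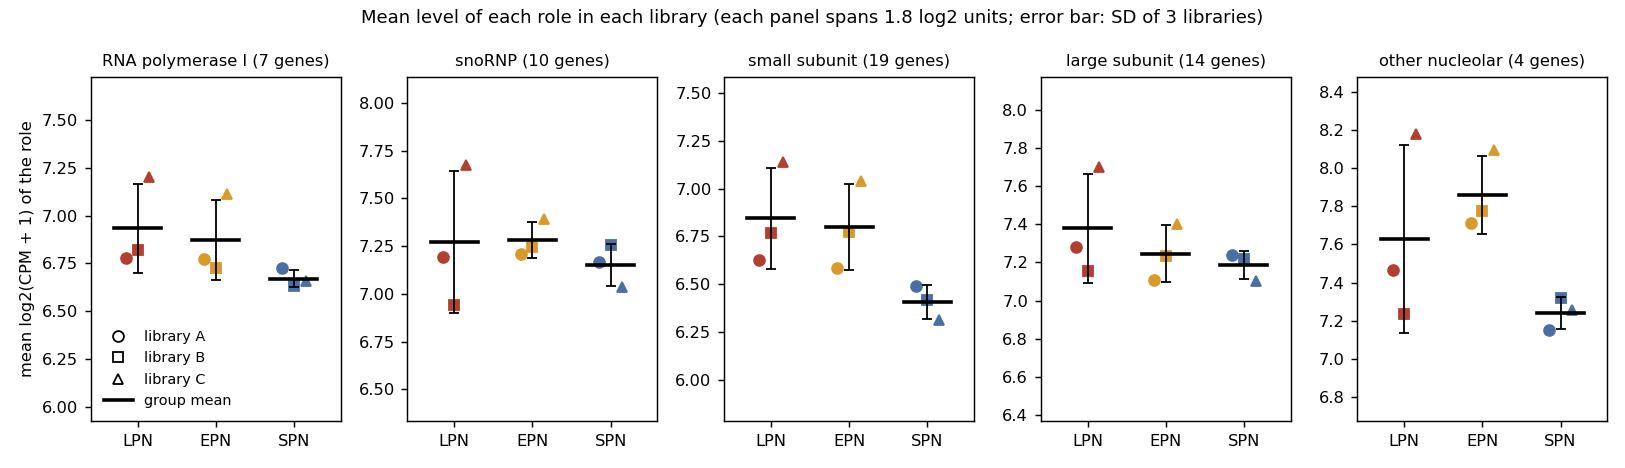
Mean of log2(CPM + 1) over the genes of each role, in each library of LPN, EPN and SPN, with the group mean and an error bar of 1 SD (n = 3). Each panel spans the same range on the log2 scale. Small subunit genes are higher in all LPN and EPN libraries than in SPN with CPM as deposited, while EPN and SPN overlap with median-of-ratios scaling, and LPN C is the highest LPN library in each of the 5 panels.

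The sequences around the start of the genes were searched for short motifs, as a planned description. RefSeq promoter windows of the GRCm38.p6 build, with 250 bases before and 50 after the start, were given for 46 of the 54 genes, and not for Naf1, Dcaf13, Fbl, Rrs1, Nop53, Nol6, Bop1 and Utp6. The files of the study use another build, so the coordinates below belong to GRCm38.p6. The 250 upstream bases of 4 called genes are printed 5′ to 3′ on the strand of the gene. Capitals mark CACGTG (the E-box bound by MYC-type factors), CCGGAA (the core of an ETS site, TTCCGG on the other strand) and TCGCGA, each searched on both strands.
Ltv1, chr10:13193138-13193387, minus strand: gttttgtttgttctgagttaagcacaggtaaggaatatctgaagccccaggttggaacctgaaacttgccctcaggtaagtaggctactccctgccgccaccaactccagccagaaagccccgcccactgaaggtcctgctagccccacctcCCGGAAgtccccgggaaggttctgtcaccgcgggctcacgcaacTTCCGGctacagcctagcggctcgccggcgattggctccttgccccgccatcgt
Nmd3, chr3:69721805-69722054, plus strand: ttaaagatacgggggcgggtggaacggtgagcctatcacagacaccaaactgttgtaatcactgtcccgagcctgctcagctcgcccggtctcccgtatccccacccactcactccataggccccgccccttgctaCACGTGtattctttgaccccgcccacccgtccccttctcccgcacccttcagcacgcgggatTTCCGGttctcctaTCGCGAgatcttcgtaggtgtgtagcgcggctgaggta
Brix1, chr15:10485938-10486187, minus strand: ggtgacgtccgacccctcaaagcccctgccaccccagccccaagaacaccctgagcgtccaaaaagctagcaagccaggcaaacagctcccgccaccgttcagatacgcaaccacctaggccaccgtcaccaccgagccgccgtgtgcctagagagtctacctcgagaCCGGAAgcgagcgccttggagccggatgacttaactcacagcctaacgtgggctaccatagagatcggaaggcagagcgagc
Nip7, chr8:107056627-107056876, plus strand: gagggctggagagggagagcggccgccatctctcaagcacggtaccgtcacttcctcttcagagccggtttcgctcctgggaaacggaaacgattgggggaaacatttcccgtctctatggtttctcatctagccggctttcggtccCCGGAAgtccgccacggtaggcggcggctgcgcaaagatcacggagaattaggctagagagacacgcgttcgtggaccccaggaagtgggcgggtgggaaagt

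Of the 7 called genes 6 have a window, and 5 of these hold CCGGAA. Dkc1 holds none of the motifs, and Polr1e holds CCGGAA after the start alone, at 26. The 4 printed sequences are those of the other called genes with a window. They all hold CCGGAA, with its first base at positions -98 and -54 from the start in Ltv1, -52 in Nmd3, -82 in Brix1 and -103 in Nip7. Nmd3 also holds CACGTG at -114 and TCGCGA at -38. In the 50 bases after the start, which are not printed, Ltv1 holds CACGTG at 28, and CCGGAA recurs at 7 in Brix1 and at 9 in Nip7. CCGGAA was in 24 of the 46 windows, or 52.2%, beside 28.3% of tested genes with a window and 16.7% of all windows in the table. CACGTG was in 12 of 46, or 26.1%, beside 11.1% and 8.09%, and TCGCGA in 7 of 46, or 15.2%, beside 5.42% and 2.86%. GCATGCG, searched as well, was in 3 of 46, or 6.52%, beside 6.82% and 4.01%. A match is a run of letters and not a binding site. Genes with CCGGAA had a median difference of 0.39 in LPN against SPN and those without 0.45, and for CACGTG the medians were 0.49 and 0.39. For TCGCGA the medians were 0.61 with and 0.36 without in LPN against SPN, and 0.74 with and 0.21 without in EPN against SPN, over 7 and 39 genes. No test of these shares or medians was made.

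The differences of the 54 genes in LPN against SPN were sorted by the base composition of their transcripts. Across the 54 genes the difference had a Spearman correlation of -0.54 with the GC content of the longest coding transcript and of 0.59 with the level per kilobase, against -0.15 and 0.15 over 14621 tested genes with a transcript. Genes are not independent, and all points share the same 6 libraries, so these are descriptions. The 27 genes of lowest GC content (38.9% to 48.3%) had a median difference of 0.56, 25 positive and 6 called, and all tested genes of the same GC range had a median of -0.07. The 27 genes of highest GC content (48.4% to 59.8%) had a median of -0.09, 12 positive and 1 called (Polr1e), and all tested genes of that range a median of -0.26.

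Within the libraries the low-GC genes had a mean log2(CPM + 1) of 7.48, 7.61 and 7.82 in LPN, 7.22, 7.50 and 7.59 in EPN and 7.21, 7.15 and 6.99 in SPN, which places every LPN library above every SPN library. The high-GC genes were at 6.48, 6.27 and 7.12 in LPN, 6.66, 6.59 and 6.98 in EPN and 6.57, 6.61 and 6.54 in SPN. LPN A and LPN B lay below all SPN libraries there and LPN C above all others. Values corrected in each library for a smooth trend with GC content and length, a setting chosen after seeing the data, called 6 of the 7 genes in LPN against SPN, beside 2.06% of all genes higher and 5.41% lower.

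**Figure D5:**
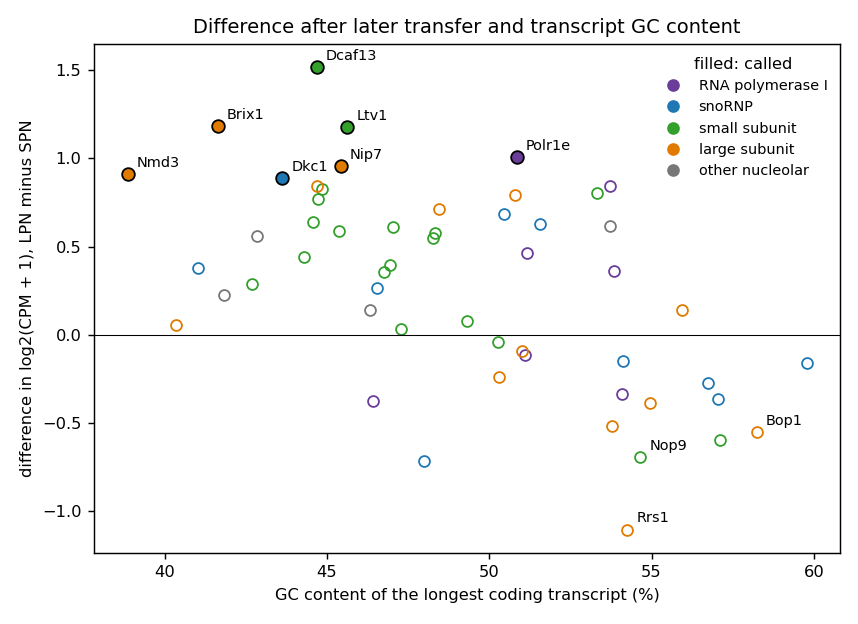
Difference of LPN against SPN in log2(CPM + 1) against the GC content of the longest coding transcript in percent, for the 54 genes, coloured by role. Filled points are the 7 called genes, of which 6 lie among the 27 genes of lowest GC content, and Rrs1, Bop1 and Nop9 are named at the lower edge.

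Further genes of ribosome assembly, 121 that are not among the 54 and 120 of them in the table, were set beside them. In LPN against SPN 33 of the 120 had an unadjusted p under 0.05, or 27.5%, near the 26.9% of all tested genes. The median of the 120 genes lay 0.52 above that of all genes. After adjustment 11 rose, or 9.17%, and none fell, beside 3.26% and 5.54% of all tested genes. The 4 with the smallest adjusted p were Riok2, an atypical kinase of the late small subunit (2.77-fold, adjusted p = 0.00504), Gtpbp4, a GTPase of the early large subunit (2.16-fold, adjusted p = 0.0122), Taf1a, a subunit of the RNA polymerase I selectivity factor (2.23-fold, adjusted p = 0.0175), and the nucleolar gene Nol7 (2.01-fold, adjusted p = 0.0246). After the early transfer none passed limma, with 17 at an unadjusted p under 0.05, or 14.2%, beside 11.04% of all tested genes. In LPN against EPN 23 had an unadjusted p under 0.05, or 19.2%, near the 19.3% of all tested genes. After adjustment 4 rose, or 3.33%, and none fell, beside 0.692% and 0.84% of all genes. They were Nsa2 (2.83-fold, adjusted p = 0.0107), C1d (2.63-fold, adjusted p = 0.0237), Nol7 (2.42-fold, adjusted p = 0.0237) and Fcf1 (2.52-fold, adjusted p = 0.0243). All 4 had a lower mean in EPN than in SPN. The EPN and SPN means were 153 and 236 CPM for Nsa2, 288 and 489 CPM for C1d, 163 and 200 CPM for Nol7, and 178 and 317 CPM for Fcf1. C1d and Fcf1 were not called in LPN against SPN. Of the cytosolic ribosomal protein genes, the parts from which the subunits are assembled, 84 of 85 in the table were tested and 1, Rpl6, rose in LPN against SPN (named after its values were seen), a share of 1.19% that is below the 3.26% of all genes. Their medians lay 0.28 above that of all genes in LPN against SPN, beside 0.54 for the 54 genes. For EPN against SPN that distance was -0.02, beside 0.29. Between LPN and EPN it was 0.38, beside 0.14.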

How the data were processed

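The authors deposited CPM (reads scaled by the library total) for 19359 genes in 9 libraries, and the submitters' processing notes name GRCm39, HISAT2 2.2.1, Trim Galore 0.6.7, edgeR and R 3.3.3. The counter and annotation are not given in the sources used here. Per the labels' protocols, cDNA came from a Smart-seq2 kit and libraries from Nextera XT. CPM were used as deposited; 100% of values were whole reads within 0.01 reads, and 3.66% to 5.68% of each library total lay outside the table. Values were log2(CPM + 1), so folds of low genes are understated. Genes reaching 1 CPM in 3 or more libraries entered limma 3.58.1 in R 4.3.3 (trended empirical Bayes; degrees of freedom 6 residual, 25.9 prior), tested on simulated data. Folds, SEs and two-sided adjusted p-values come from that fit. The members and lists were chosen with earlier results of these data known.

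Named were all called members, the 3 members of each role with the smallest F-test p, Ncl, Fbl, Polr1a, Polr1b, Ubtf, Rrn3, Dkc1, Pes1, Bop1, Nob1 and Ltv1, and up to 4 called further assembly genes per comparison. Alternatives were another pseudocount, filter and scaling, edgeR 4.0.16 and DESeq2 1.42.0 on the recovered counts, the letter as a block, 2 groups alone, each library left out, and a GC and length correction added later. Transcript GC and length are from GENCODE for GRCm38. Precision was limited by 3 libraries a group.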

Additional observations from a re-analysis of the deposited data

Results flagged for a closer look

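Polr1e was marked because its change after the later transfer and its change after the early transfer, each against SPN, differed when that difference was tested directly. The difference was 1.04 on the log2 scale (SE 0.28, limma adjusted p = 0.0490), with all 3 LPN libraries above all 3 EPN libraries. It was 0.96 to 1.19 over the 18 alternative settings and passed in 6 of them, with an adjusted p of 0.0104 to 0.217. This test is the comparison of LPN against EPN, and no other member of the 54 passed it. That is a share of 1.85%, near the 1.53% of all tested genes called in either direction.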

How the results depend on the processing

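The median of the 54 genes relative to all genes was 0.37 to 0.68 in LPN against SPN over the 18 alternatives. It was 0.17 to 0.47 in EPN against SPN and -0.01 (without EPN A) to 0.29 in LPN against EPN. All moves were under 0.286, the pooled SD of this median level between libraries. That SD is about the main value of EPN against SPN (0.29) and above that of LPN against EPN (0.14), so it shows no stability there. The replicate block, the fit of 2 groups alone and leaving out a library of the third group cannot move this median. Counts of calls moved more, and the cause was not tested. Brackets give the share of all tested genes called in either direction. In LPN against SPN, 7 genes (8.80%) became 2 with no filter on low values (2.57%), where more genes are tested. They became 2 with edgeR (3.17%), 11 with DESeq2 (12.3%) and 3 in a fit of the 2 groups alone (4.43%). Leaving out 1 library gave 0 to 16 (0.645% to 18.4%). In LPN against EPN, 1 (1.53%) became 0 with a pseudocount of 0.1 CPM (0.417%), no filter (0%), median-of-ratios scaling (1.21%) and edgeR (0.141%). At these counts of 0, 8, 5, 8 and 8 genes had an unadjusted p under 0.05. In the main fit 8 of the 54 did, or 14.8%, beside 19.3% of all tested genes. That share of all genes was not counted under the alternatives. The count of calls became 2 with a filter of 5 CPM on the mean (4.02%) and in a fit of the 2 groups alone (3.12%). It became 4 with DESeq2 (6.22%). Leaving out 1 library gave 0 to 3 (0.0269% to 5.12%). In EPN against SPN, 0 (0.108%) became 5 without SPN A (3.03%), and the other libraries left out gave 0. The F test called 0 with no filter (0%) and with edgeR (0.847%) and 11 with DESeq2 (11.5%) in place of 4 (5.73%). With 1 library left out it called 0 to 14 (0.262% to 17.1%).

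Deviations of libraries of the same letter had correlations of -0.024 to 0.092 (mean 0.041). Those of different letters had correlations of -0.0996 to 0.096 (mean -0.020). These ranges overlap, and they cannot decide whether a letter marks a shared day or mating. With the replicate block 2 genes were called in LPN against EPN, beside 3.23% of all genes, and 9 in LPN against SPN, beside 11.1%. There were 0 in EPN against SPN, beside 0.168%, and 6 by the F test, beside 8.44%. Of 1188 values of named genes under an alternative, 58 lost and 22 gained a call; no called value changed sign, and 48 uncalled ones did. Without LPN B none of the 54 genes was called in LPN against SPN, beside 204 of the 14876 tested genes. There 21 of the 54 had an unadjusted p under 0.05, beside 19 in the main fit, or 35.2%, where all tested genes had 26.9%. The share of all genes without LPN B was not counted. The 7611781 reads of LPN B are the lowest total, and the part of depth was not tested.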
